A study of Rattus norvegicus with 6 samples.

Results

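The kynurenine pathway and NAD synthesis were followed through 10 genes of rat liver: Tdo2, Afmid, Kmo, Kynu, Haao, Acmsd, Qprt, Aadat, Nampt and Nmnat3. They were taken by name from a table of 20104 genes, and all 10 were present and passed the filter on low counts, the lowest value being 283 counts of Nmnat3 in Quik-clot replicate 2. The livers had been injured and the wound dressed, and tissue was taken on day 14. AKOC, a name the labels do not expand, from a series about kaolin fixed on cotton, covered the wound in 3 samples. Quik-clot, a commercial haemostatic dressing and the control here, covered it in the other 3. Each sample gave 1 RNA sequencing library of whole liver tissue. The labels do not say whether each sample came from its own animal, and "livers" below stands for these samples. The labels used here give no strain, sex, age or hour of collection, and no uninjured liver was analysed, so every difference below is between 2 dressed wounds.

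The liver is the main organ in which tryptophan is broken down. Tdo2 opens the ring of tryptophan, Afmid yields kynurenine, and Kmo, Kynu and Haao carry it to an unstable semialdehyde. That intermediate either closes by itself to quinolinic acid, which Qprt turns into the NAD precursor nicotinic acid mononucleotide, or is diverted by Acmsd towards complete oxidation. Aadat takes kynurenine out of the main line as kynurenic acid. Nampt, the rate-limiting enzyme of NAD salvage, reuses nicotinamide, and the NMNAT enzymes, with Nmnat3 as the form ascribed to mitochondria, complete the dinucleotide.

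The genes were chosen with the difference between AKOC and Quik-clot livers already known. Their levels and fold changes are therefore given as a description, without a test. Levels of 1 gene are counts scaled to 1e6 per library (CPM) after scaling with the TMM factors of edgeR (trimmed mean of M values). Levels of different genes are set side by side only as FPKM, fragments scaled to depth and gene length, which accounts for gene length. Fold changes are log2 ratios of AKOC over Quik-clot with their standard error (SE). Quik-clot replicate 3 had the highest sum of acute phase transcripts and AKOC replicate 2 the next highest. The fold changes of 5 genes without each of these libraries are given at the end.

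At 4 of the 10 genes the 3 AKOC libraries did not overlap with the 3 Quik-clot libraries, which was so for 18.4% of all 13872 genes tested. Tdo2 was lower in AKOC livers (1 of 10, against 8.84% of all genes), and Kynu, Aadat and Nmnat3 were higher (3 of 10, against 9.53%). As this contrast chose the genes, nothing is read from these shares. The 250 bases before the annotated start of these 4 genes are shown because they are the ones whose levels separated the dressings. They come from RefSeq on the GRCr8 build, which is not the build the authors used, and run 5′ to 3′ on the gene's strand. Capitals mark matches, on either strand, to any of 5 motifs: CACGTG (the E-box, bound by the clock proteins CLOCK and BMAL1), AGGTCA (a nuclear receptor half-site), GTTAAT (an HNF1 half-site), AGAACA (a glucocorticoid receptor half-site) and TATAAA (which places the start of transcription in many genes).
Tdo2, chr2:169585587-169585836 (-): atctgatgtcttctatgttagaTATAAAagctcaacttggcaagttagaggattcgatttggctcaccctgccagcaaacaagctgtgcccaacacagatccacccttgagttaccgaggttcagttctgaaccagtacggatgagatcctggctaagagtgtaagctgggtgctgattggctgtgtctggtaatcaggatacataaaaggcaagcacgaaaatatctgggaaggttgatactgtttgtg
Kynu, chr3:48188036-48188285 (+): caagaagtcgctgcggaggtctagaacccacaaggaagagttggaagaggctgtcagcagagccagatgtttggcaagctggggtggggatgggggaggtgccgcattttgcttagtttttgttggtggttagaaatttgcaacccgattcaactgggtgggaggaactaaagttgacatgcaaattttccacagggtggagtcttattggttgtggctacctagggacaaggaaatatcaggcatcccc
Aadat, chr16:34555181-34555430 (-): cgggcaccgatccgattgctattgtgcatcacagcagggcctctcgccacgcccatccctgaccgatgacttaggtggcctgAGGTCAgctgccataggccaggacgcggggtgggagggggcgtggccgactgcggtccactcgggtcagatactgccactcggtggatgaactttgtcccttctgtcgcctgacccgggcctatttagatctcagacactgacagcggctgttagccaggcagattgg
Nmnat3, chr8:107771363-107771612 (+): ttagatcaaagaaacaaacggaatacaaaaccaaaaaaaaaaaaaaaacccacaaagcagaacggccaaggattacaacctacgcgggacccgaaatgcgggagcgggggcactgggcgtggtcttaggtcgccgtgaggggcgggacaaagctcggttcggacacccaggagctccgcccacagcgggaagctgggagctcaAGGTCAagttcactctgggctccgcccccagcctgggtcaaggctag

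The Tdo2 window held 1 TATAAA, far upstream at bases -228 to -223. Aadat held AGGTCA at -168 to -163 and Nmnat3 held it at -47 to -42, while the Kynu window held none of the 5 motifs. Among all 33469 promoters in the table, 12.9% held TATAAA and 14.1% held AGGTCA in the same 250 bases. CACGTG stood in 5.59% of them, GTTAAT in 6.45% and AGAACA in 17.5%. Promoters of 8 of the 10 genes were matched, and Acmsd and Nampt were not. Of those 8, 3 held AGGTCA (Haao besides Aadat and Nmnat3), 1 held AGAACA (Haao), 1 held TATAAA, and 0 held CACGTG or GTTAAT.

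Tdo2, which encodes tryptophan 2,3-dioxygenase, the first and committed step, was by far the most abundant of the 10. Its 3 AKOC libraries stood at 838, 949 and 726 CPM, against 1239, 1113 and 1472 CPM in the 3 Quik-clot libraries. Every AKOC library lay below every Quik-clot library, with means of 838 ± 112 CPM for AKOC and 1274 ± 182 CPM for Quik-clot (SD, n = 3 each, as for all means below). The log2 fold change was -0.61 ± 0.20 (SE), so that AKOC livers held 0.657 times the Quik-clot level. It ran from -0.71 to -0.49 when each library was left out in turn. The other dioxygenases that open tryptophan were far lower: Ido2 averaged 7.98 ± 1.17 FPKM in AKOC livers and 7.01 ± 0.94 FPKM in Quik-clot livers, where Tdo2 averaged 484 ± 66.7 FPKM with AKOC and 771 ± 60.3 FPKM with Quik-clot. Ido1, the interferon-induced enzyme, had 1, 0 and 1 counts in the AKOC libraries and 0 in each Quik-clot library.

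Afmid, the formamidase that releases kynurenine, did not separate the dressings. It stood at 140, 147 and 115 CPM in AKOC livers and at 125, 138 and 111 CPM in Quik-clot livers. The libraries of the 2 dressings interleaved, with a log2 fold change of 0.10 ± 0.14. Kmo, the flavoprotein that hydroxylates kynurenine, behaved likewise, at 187, 240 and 219 CPM in AKOC livers and 266, 210 and 174 CPM in Quik-clot livers. Its mean was 215 ± 26.2 CPM in AKOC livers and 217 ± 46.3 CPM in Quik-clot livers, and its log2 fold change of -0.01 ± 0.18 changed sign in 4 of 15 alternative analyses.

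Kynu encodes kynureninase, the vitamin B6-dependent enzyme that removes alanine from hydroxykynurenine, and showed the widest shift of the 10. It stood at 140, 175 and 172 CPM in AKOC livers and at 59.5, 121 and 58.3 CPM in Quik-clot livers. All AKOC libraries were higher, and within Quik-clot replicate 2 lay closer to the AKOC libraries than to its own group. The means were 163 ± 19.4 CPM for AKOC and 79.5 ± 35.8 CPM for Quik-clot, a log2 fold change of 1.03 ± 0.29 or 2.05-fold. Without Quik-clot replicate 2 the log2 fold change was 1.47, and without Quik-clot replicate 3 it was 0.86. On the FPKM scale, which carries no TMM factors, the AKOC libraries stood at 78.9, 82.7 and 85.4 FPKM and the Quik-clot libraries at 34.8, 67.4 and 27.4 FPKM. The AKOC grouping was closer there than in CPM. The SD of log2 CPM was 0.179 in AKOC livers, beside a median of 0.197 over all genes tested, and 0.598 in Quik-clot livers, beside 0.243.

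Haao, the dioxygenase that produces the branch-point semialdehyde, was the steadiest gene, with its highest library only 1.17 times its lowest. It stood at 141, 162 and 138 CPM in AKOC livers and at 146, 149 and 162 CPM in Quik-clot livers. The log2 fold change was -0.05 ± 0.11, and the dressings overlapped.

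**Figure D1:**
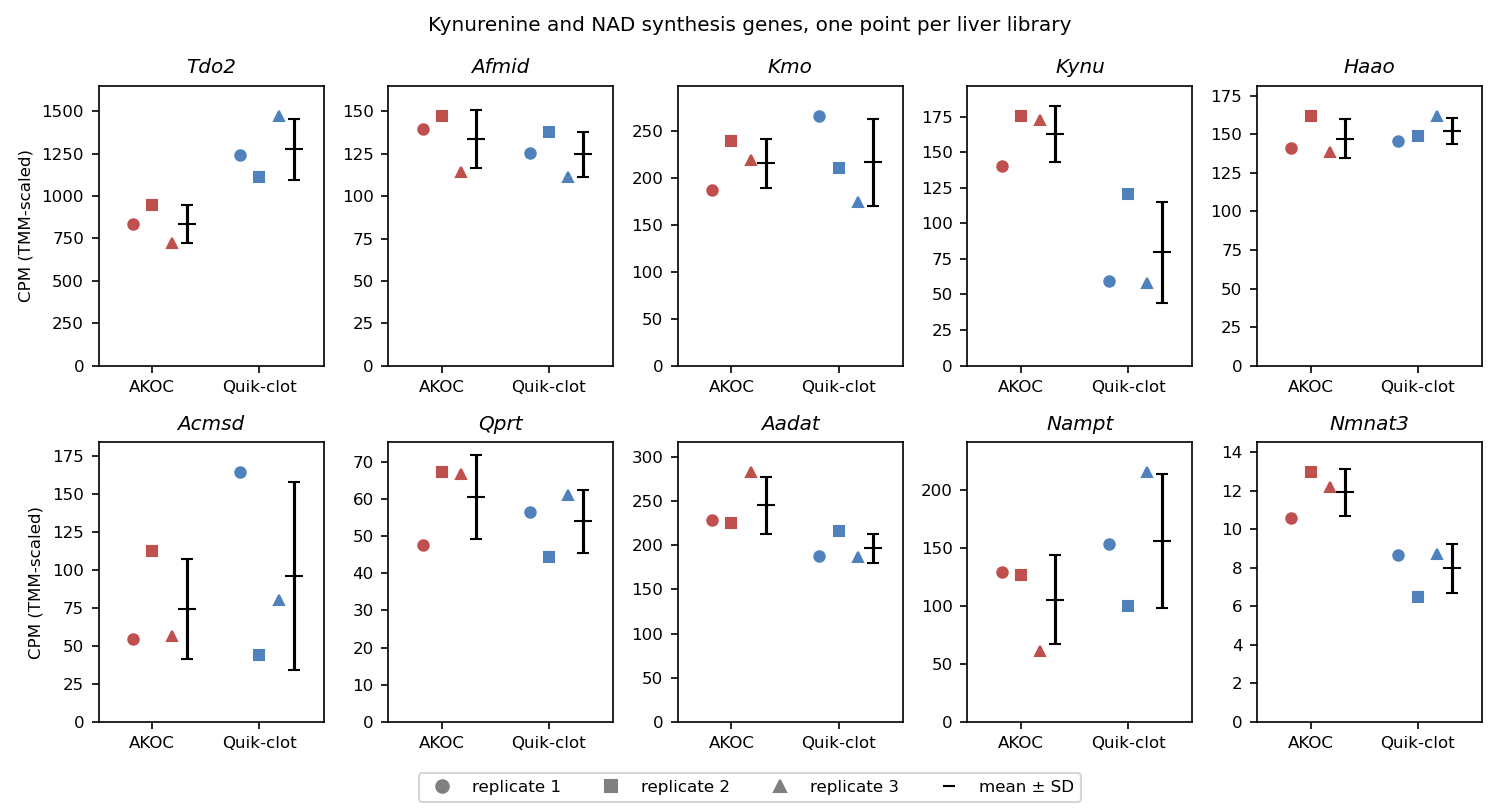
TMM-scaled CPM (vertical axes, each from 0) of the 10 genes in AKOC and Quik-clot livers, with 1 point per library, the replicate number as the point shape, and the mean ± SD of 3 libraries beside them. Tdo2 points of AKOC lie below those of Quik-clot, Kynu, Aadat and Nmnat3 points lie above, and the other 6 genes overlap.

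At the branch point the spread between libraries of a dressing was wider than the difference between dressings. Acmsd, the decarboxylase that draws the semialdehyde away from NAD synthesis, stood at 54.2, 112 and 56.5 CPM in AKOC livers and at 164, 44.05 and 79.9 CPM in Quik-clot livers. Both the highest and the lowest library belonged to Quik-clot, a 3.73-fold range over all 6. The log2 fold change of -0.37 ± 0.49 turned to 0.26 without Quik-clot replicate 1. Qprt, on the NAD side of the branch, was narrower, at 47.5, 67.1 and 66.7 CPM in AKOC livers and 56.4, 44.3 and 60.9 CPM in Quik-clot livers. Its dressings overlapped, with a log2 fold change of 0.17 ± 0.18 that ran from 0.04 to 0.31 when each library was left out.

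The ratio of Acmsd to Qprt within a library, both in FPKM, describes the balance of transcripts on the 2 arms. It was 0.726, 1.06 and 0.539 in AKOC livers and 1.85, 0.632 and 0.834 in Quik-clot livers. The dressings overlapped, and 2 of the 3 libraries in each group had more Qprt than Acmsd. The mean was 0.776 ± 0.265 for AKOC and 1.11 ± 0.653 for Quik-clot, and the Quik-clot mean became 0.733 without its replicate 1. In contrast, the ratio of Kynu to Kmo, consecutive enzymes, was 2.58, 2.52 and 2.72 in AKOC livers and 0.771, 1.98 and 1.16 in Quik-clot livers. The ratio of Tdo2 to Kynu was 6.78, 6.15 and 4.78 in AKOC livers and 23.7, 10.5 and 28.7 in Quik-clot livers, without overlap. These ratios rest on the same values that chose the genes and describe them only.

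**Figure D2:**
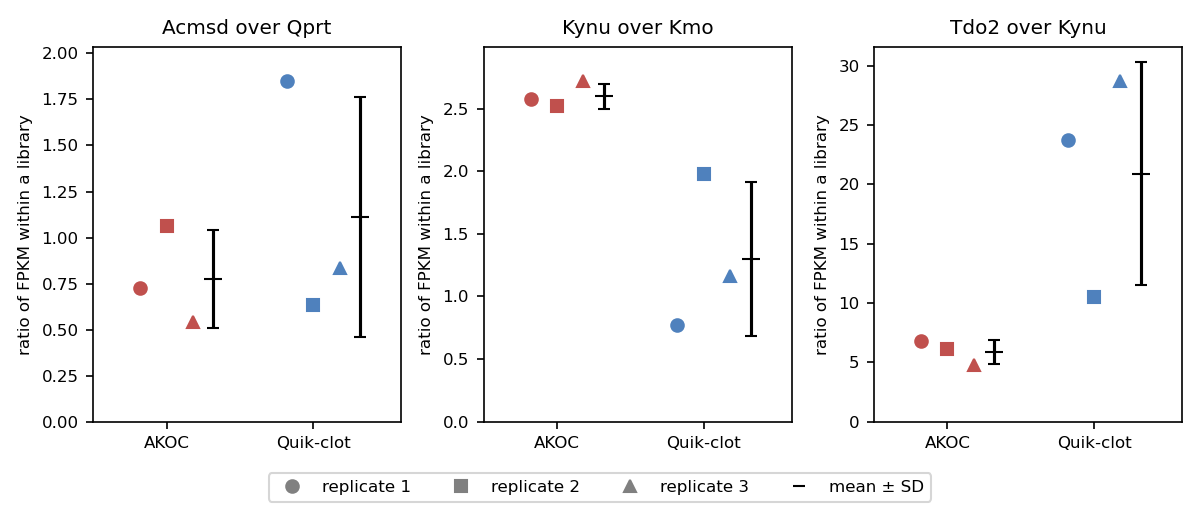
Ratio of FPKM within each library (vertical axes, each from 0) for 3 gene pairs in AKOC and Quik-clot livers, with 1 point per library and the mean ± SD of 3 beside them. Acmsd over Qprt overlaps between dressings, while Kynu over Kmo is higher and Tdo2 over Kynu lower in all 3 AKOC libraries.

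Aadat, the aminotransferase that makes kynurenic acid, was modestly higher. It stood at 229, 225 and 282 CPM in AKOC livers and at 188, 216 and 186 CPM in Quik-clot livers. The gap between the lowest AKOC and the highest Quik-clot library was small, and in FPKM or with library totals alone the dressings overlapped, with AKOC replicate 2 at 112 FPKM and Quik-clot replicate 2 at 127 FPKM. The log2 fold change was 0.32 ± 0.14, and 0.21 without AKOC replicate 3. Among the other aminotransferases that can act on kynurenine, Kyat3 averaged 181 ± 7.47 CPM in AKOC livers and 177 ± 26.2 CPM in Quik-clot livers. Kyat1 averaged 35.2 ± 2.65 CPM with AKOC and 40.3 ± 9.55 CPM with Quik-clot. In FPKM the AKOC means were 132 ± 18.3 for Aadat, 80.6 ± 9.44 for Kyat3 and 12.7 ± 0.87 for Kyat1. The Quik-clot means were 112 ± 17.5, 83.5 ± 18.3 and 15.2 ± 1.92 FPKM in the same order.

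Nampt, the salvage enzyme, ranged over its libraries more widely than any of the 10 genes except Acmsd. It stood at 129, 127 and 60.9 CPM in AKOC livers and at 153, 99.5 and 215 CPM in Quik-clot livers. The dressings overlapped, the lowest library being AKOC replicate 3 and the highest Quik-clot replicate 3. The log2 fold change was -0.56 ± 0.36, which moved to -0.29 when AKOC replicate 3 was left out, to -0.26 without Quik-clot replicate 3 and to -0.81 with Quik-clot replicate 2 left out. Nmnat3 was the least abundant of the 10 and stood at 10.6, 12.9 and 12.2 CPM in AKOC livers and at 8.66, 6.49 and 8.73 CPM in Quik-clot livers. All AKOC libraries were higher, with a log2 fold change of 0.58 ± 0.17, which ran from 0.45 to 0.66 when each library was left out. Its nuclear counterpart Nmnat1 averaged 9.94 ± 1.35 CPM in AKOC livers and 10.6 ± 0.83 CPM in Quik-clot livers (log2 fold change -0.10 ± 0.15). In FPKM, Nmnat1 averaged 2.165 ± 0.106 with AKOC and 2.475 ± 0.455 with Quik-clot. That was below Nmnat3, at 5.06 ± 0.07 FPKM with AKOC and 3.58 ± 0.62 FPKM with Quik-clot. Nmnat2, a neuronal form, had 1 count in 1 library of each dressing and 0 in the others.

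Ordered by mean FPKM over the 6 libraries, the 10 genes ran from Tdo2 (628 FPKM, the 104th highest of all 20104 genes) through Aadat (122), Haao (77.5), Kynu (62.8), Afmid (45.7), Qprt (33.04), Kmo (32.96), Acmsd (31.9) and Nampt (29.5) to Nmnat3 (4.32 FPKM, the 5735th). Tdo2 lay above every other gene in every library, and Aadat above the other 8. Haao and Kynu overlapped, as did Kynu and Afmid, and Afmid and Qprt. Qprt, Kmo, Acmsd and Nampt could not be ordered, since their libraries spread over each other. Kynu lay above Haao in the AKOC means, at 82.3 ± 3.25 and 74.2 ± 5.54 FPKM, and below it in the Quik-clot means, at 43.2 ± 21.3 and 80.8 ± 4.61 FPKM.

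The genes did not move as a block from library to library. Quik-clot replicate 3 was the highest library for 3 genes (Tdo2, Haao and Nampt) and the lowest for 4 (Afmid, Kmo, Kynu and Aadat). AKOC replicate 3 was the lowest for Tdo2, Haao and Nampt and the highest for Aadat. AKOC replicate 2 was the highest for Afmid, Kynu, Qprt and Nmnat3. Within a dressing, the SD of log2 CPM had a median over the 10 genes of 0.188 in AKOC and 0.241 in Quik-clot livers, beside 0.197 in AKOC and 0.243 in Quik-clot livers over all genes tested.

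**Figure D3:**
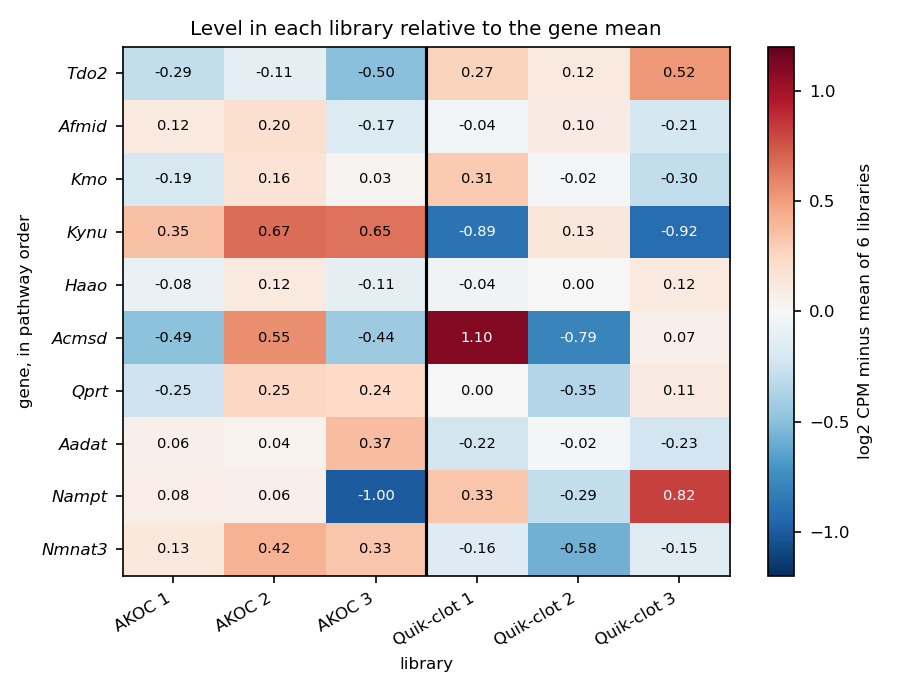
Log2 CPM of each gene in each library minus the gene's mean over the 6 libraries (colour and printed value), with genes in pathway order down the page and AKOC libraries left of the line, Quik-clot libraries right of it. Tdo2 lies below its mean and Kynu above it in all 3 AKOC libraries, both lie above their means in Quik-clot replicate 2, and the extremes of Acmsd (in Quik-clot replicate 1) and Nampt (in AKOC replicate 3) each belong to a single library.

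The edgeR quasi-likelihood test across all 13872 genes, two-sided with Benjamini-Hochberg adjustment, called 0% of genes at an adjusted p under 0.05, and 12.5% of them had an unadjusted p under 0.05. DESeq2 called 280 of 13837 genes (2.02%) and limma-voom called 0. These tests are not read for the 10 genes, which were chosen on this contrast. Of the 10 genes, 5 had a positive and 5 a negative log2 fold change, with a median of 0.05 beside -0.01 over all genes tested.

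The rest of tryptophan breakdown and NAD metabolism was followed in 57 further genes, of which 54 were in the table and 50 passed the filter. None of the 50 passed the edgeR test over all genes, and the lowest adjusted p was 0.281. Before adjustment, 5 were higher and 2 lower at p under 0.05, against 6.78% and 5.69% of all genes. Of the 50, 37 had a positive and 13 a negative log2 fold change, against 6662 positive and 7210 negative among all genes tested, and the median was 0.14 against -0.01. DESeq2 called 2 of the 51 to which it gave an adjusted p, both higher with AKOC, beside 1.34% of all genes that it called higher: Nnt (adjusted p = 0.0355) and Sirt5 (adjusted p = 0.0478), whose adjusted p reached 0.644 in the least favourable alternative, and limma-voom called 0.

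Among genes of tryptophan entry and the kynurenine route, 5 of 11 tested were positive and 6 negative. Slc16a10, a transporter of aromatic amino acids, had the smallest unadjusted p of this group. It stood at 53.7, 63.4 and 29.2 CPM in AKOC livers and at 100.4, 73.1 and 101.9 CPM in Quik-clot livers. The libraries did not overlap, with a log2 fold change of -0.91 ± 0.28 (edgeR adjusted p = 0.322). The mitochondrial aspartate aminotransferase Got2 had 0.33 ± 0.14 (adjusted p = 0.402), Dhtkd1, of the downstream oxidation of lysine and tryptophan, 0.33 ± 0.18 (adjusted p = 0.483), and the amino acid transporter Slc7a5 -0.60 ± 0.34 (adjusted p = 0.491) in the same edgeR fit. Single libraries carried part of these values. Without AKOC replicate 3 Slc16a10 stood at -0.65. Slc7a5 stood at -0.13 without Quik-clot replicate 1, and Dhtkd1 at 0.18 without Quik-clot replicate 3.

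Of the genes that make NAD from nicotinic acid, nicotinamide and ribosides, 4 of 5 tested were positive. Naprt, which starts the route from nicotinic acid, averaged 59.2 ± 12.2 CPM in AKOC livers and 44.3 ± 6.21 CPM in Quik-clot livers (log2 fold change 0.42 ± 0.17, edgeR adjusted p = 0.391). Nadsyn1, the NAD synthetase that also ends the route from tryptophan, averaged 14.7 ± 2.28 CPM in AKOC livers and 11.6 ± 0.94 CPM in Quik-clot livers without overlap (0.35 ± 0.15, edgeR adjusted p = 0.402). The purine nucleoside phosphorylase Pnp had 0.20 ± 0.21 (edgeR adjusted p = 0.711), and Nmnat1, described above, had an edgeR adjusted p of 0.809. The log2 fold change was 0.24 for Naprt without AKOC replicate 2 and 0.22 for Nadsyn1 without AKOC replicate 1, while that of Pnp was 0.09 with AKOC replicate 1 left out, 0.04 with replicate 1 of Quik-clot left out and 0.43 with its replicate 2 left out.

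All 8 tested genes of NAD phosphorylation, repair and mitochondrial import were positive (median log2 fold change 0.27), and 0 passed the test. Nnt, the mitochondrial transhydrogenase that makes NADPH from NADH, stood at 131, 162 and 170 CPM in AKOC livers and at 112, 100.2 and 100.5 CPM in Quik-clot livers. Every AKOC library was higher, with a log2 fold change of 0.57 ± 0.13 (edgeR adjusted p = 0.281). Naxe, which repairs damaged NADH and NADPH, had 0.44 ± 0.14 (edgeR adjusted p = 0.329), the NAD kinase Nadk 0.27 ± 0.11 (edgeR adjusted p = 0.386) and Nudt13 0.46 ± 0.23 (edgeR adjusted p = 0.440).

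Among 18 NAD-consuming enzymes 13 were positive and 5 negative, with 0 past the test. Sirt5, a mitochondrial sirtuin that removes acyl groups such as succinyl, stood at 19.1, 19.1 and 21.5 CPM in AKOC livers and at 14.8, 14.1 and 12.4 CPM in Quik-clot livers. The libraries did not overlap, with a log2 fold change of 0.53 ± 0.12 (edgeR adjusted p = 0.281). On the other side, the nucleolar sirtuin Sirt7 had -0.34 ± 0.13 (edgeR adjusted p = 0.382). The polymerases Parp3 and Parp14 had 0.37 ± 0.16 and 0.27 ± 0.16 (edgeR adjusted p = 0.404 and 0.509), which became 0.19 for Parp3 and 0.11 for Parp14 without AKOC replicate 1.

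Of 3 genes of nicotinamide clearance, the methyltransferase Nnmt averaged 80.6 ± 24.3 CPM in AKOC livers and 116 ± 25.4 CPM in Quik-clot livers (log2 fold change -0.53 ± 0.26, edgeR adjusted p = 0.437), and its log2 fold change was -0.29 when AKOC replicate 3 was left out and -0.33 when Quik-clot replicate 3 was. Aox3 and Aox1, aldehyde oxidases, had 0.26 ± 0.33 and 0.18 ± 0.43 (edgeR adjusted p = 0.763 and 0.875). Of the other fates of tryptophan, all 5 tested genes were positive and 0 passed. The smallest unadjusted p values belonged to the monoamine oxidases Maoa (0.24 ± 0.11, edgeR adjusted p = 0.411) and Maob (0.34 ± 0.17, edgeR adjusted p = 0.434), and Maob stood at 0.20 without Quik-clot replicate 3. The decarboxylase Ddc had the largest log2 fold change of the 5, 0.58 ± 0.38 (edgeR adjusted p = 0.557), which was 0.24 without Quik-clot replicate 3 and 1.005 without Quik-clot replicate 2, and Inmt, which methylates indoleamines, 0.35 ± 0.81 (edgeR adjusted p = 0.875).

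**Figure D4:**
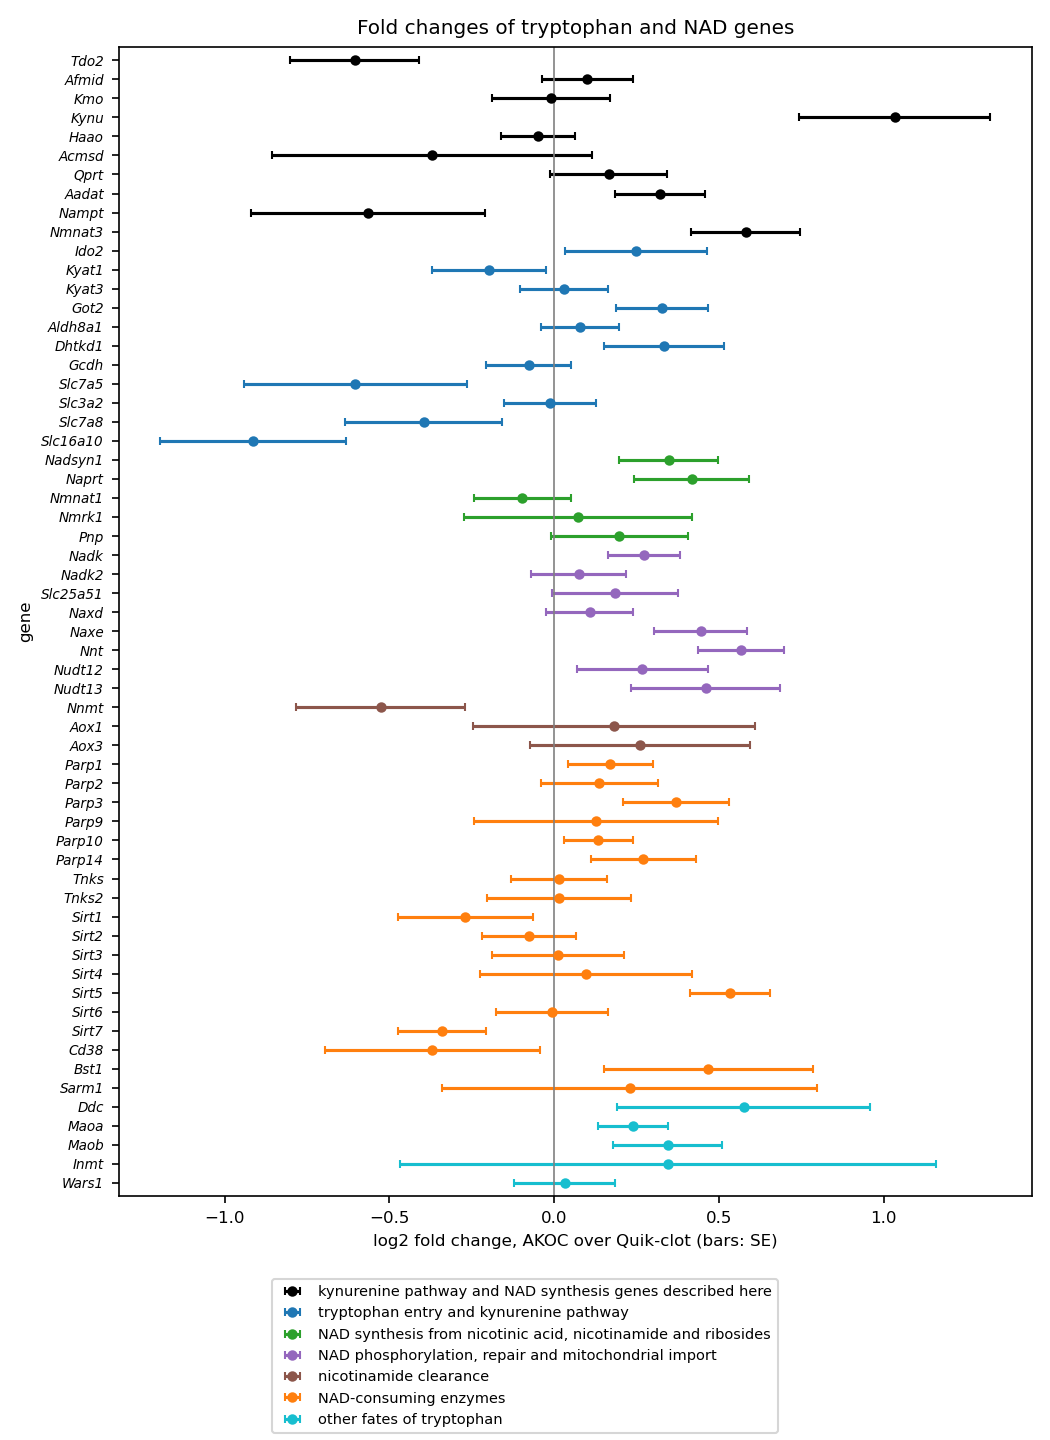
Log2 fold change of AKOC over Quik-clot (horizontal axis, bars give the SE, n = 3 libraries per dressing) for the 10 genes in black and 50 further genes coloured by group. Kynu lies farthest to the right of 0 and Slc16a10 farthest to the left, all 8 genes of NAD phosphorylation, repair and mitochondrial import lie to the right, and none of the 50 passed the adjusted threshold.

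For the 3 genes of largest absolute log2 fold change, the genes with the most similar pattern were those with the smallest root mean square difference of centred log2 CPM over the 6 libraries, among 11347 genes with a mean of at least 1 CPM over the 6 libraries. For Kynu these were the liver glycogen phosphorylase Pygl (0.096), Stxbp5l (0.118) and the phospholipase Pld1 (0.146). For Tdo2 they were Fbxw2 (0.0935), the adhesion molecule Vcam1 (0.0978) and Zbtb39, and for Nmnat3 they were the coenzyme A synthesis enzyme Ppcdc (0.0946), glutathione synthetase Gss (0.0985) and Nhej1 (0.103). Pygl, for example, stood at 236, 279 and 310 CPM in AKOC livers and at 107, 215 and 115 CPM in Quik-clot livers, with replicate 2 again the highest of its group. These matches were sought among all those genes over 6 libraries and describe these libraries only.

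Several other measures differed between the same libraries. Total counts ran from 40402312 to 41455378 per library, and mitochondrially encoded genes took 6.12% to 11% of them. Hepatocyte markers summed to 100400 to 158300 CPM in AKOC livers and 101700 to 127300 CPM in Quik-clot livers. Most of each sum was albumin (Alb), at 73730 to 122900 CPM with AKOC and 62630 to 90200 CPM with Quik-clot. Of the 10 markers, 3 were positive, Alb among them, and 7 negative, with a median log2 fold change of -0.308. In bulk tissue, fewer cells of a type and less RNA per cell cannot be told apart. Macrophage and Kupffer cell markers, relevant because macrophages also express Kmo and Kynu, had 9 of 10 negative, with sums of 810 to 1182 CPM in AKOC livers and 991 to 1590 CPM in Quik-clot livers. T and NK cell markers had 9 of 9 tested negative, with sums of 14.2 to 18.37 CPM in AKOC livers and 18.35 to 49.2 CPM in Quik-clot livers, the highest in Quik-clot replicate 2. Neutrophil markers had 3 of 5 tested negative and ranged over 12.4 to 48.7 CPM in AKOC livers and 8.99 to 119 CPM in Quik-clot livers. The highest sum was in Quik-clot replicate 3, where Nampt was also highest. The lowest was in Quik-clot replicate 1, where Nampt, at 153 CPM, was above every library except Quik-clot replicate 3. Mpo had at most 3 counts in any library and, with Ngp and Camp, did not pass the filter on low counts. The other 5 neutrophil markers passed it. Sinusoidal endothelial markers (7 of 8 negative) summed to 515 to 587 CPM in AKOC livers and 572 to 678 CPM in Quik-clot livers. Stellate cell and fibroblast markers (4 of 8 negative) summed to 256 to 315 CPM with AKOC and 138 to 289 CPM with Quik-clot, and cholangiocyte markers (4 of 5 tested negative) to 15.7 to 20.7 CPM with AKOC and 14.1 to 25.3 CPM with Quik-clot. No marker was at 0 in all 6 libraries, and the part of these markers in the values above was not tested.

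Acute phase transcripts were highest in Quik-clot replicate 3 in sum and at 8 of 9 genes, the exception being Crp, highest in AKOC replicate 2. Of the 9, 8 had a negative log2 fold change, with sums of 40240 to 77850 CPM in AKOC livers and 33610 to 105400 CPM in Quik-clot livers. A2m had 9.14, 86.7 and 91.5 CPM in AKOC livers and 5.29, 31.9 and 2403 CPM in Quik-clot livers. Without Quik-clot replicate 3 the log2 fold changes were -0.49 for Tdo2, 0.86 for Kynu, 0.28 for Aadat, 0.65 for Nmnat3 and -0.26 for Nampt. AKOC replicate 2 had the next highest sum, 77850 CPM. Without it they were -0.71 for Tdo2, 0.97 for Kynu, 0.37 for Aadat, 0.51 for Nmnat3 and -0.72 for Nampt. Of 11 clock genes tested, 0 passed the edgeR test (lowest adjusted p = 0.216), 4 had a positive and 7 a negative log2 fold change. At an unadjusted p under 0.05, 3 were higher and 7 lower, against 6.78% and 5.69% of all genes, and the libraries did not overlap at 3 higher and 5 lower, against 9.53% and 8.84%. Bmal1 had 20.6, 36.7 and 35.8 CPM in AKOC livers and 7.88, 6.33 and 9.67 CPM in Quik-clot livers. Dbp, lower in AKOC livers, had 8.33, 3.42 and 3.55 CPM there and 21.9, 28.3 and 20.2 CPM in Quik-clot livers. Nampt is known as a clock-controlled gene. The hour of collection is not in the labels, and the part of the acute phase and clock genes in these values was not tested.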

How the data were processed

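RNA of 6 rat liver samples was sequenced after library preparation with the VAHTS Universal V6 kit. The submitters' processing notes name fastp, HISAT2 and HTSeq and the mRatBN7.2 build; the annotation, versions and strandedness used are not known here. The deposited counts are whole numbers per gene without normalization. A length per gene was derived from the counts, the library totals and the deposited FPKM. With it the counts gave back the FPKM to within a relative error of 6.2e-07. The implied length was thus the same in all libraries, and within a gene the tables carry the same information. These lengths were not checked against an annotation.

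Groups came from the sample labels. Counts were filtered with filterByExpr of edgeR 4.0.16 (minimum count 10, minimum total 15), scaled by TMM (factors 0.902 to 1.12) and tested in R 4.3.3 with the quasi-likelihood F test, dressing as the only term, Benjamini-Hochberg over 13872 genes, called under 0.05. The biological coefficient of variation was 27.2%. The SE was the log2 fold change divided by the square root of F. Log2 CPM used a prior count of 2. DESeq2 1.42.0, limma-voom (limma 3.58.1), other scalings and filters, log2 FPKM with pseudocounts of 1 and 0.1, the replicate block and leaving out each library were alternatives.

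The genes, lists and tests were chosen with earlier results of these data known. All 10 genes were named, as were up to 4 genes of each further pathway group by smallest unadjusted p. So were the 3 genes most similar to each of 3 genes. Ido1, Ido2, Kyat1, Kyat3 and Nmnat2, close relatives of the 10, and Alb, Mpo, Ngp and Camp were added after their values were seen. Whether each sample is a separate animal is not in the labels, so the p-values cover the spread among these samples only, and that spread may be technical. No 2 libraries of a dressing agreed within sampling noise (chi-square over its degrees of freedom 142 to 400). An exact permutation test of 3 against 3 cannot go below a two-sided p of 0.1. Reads of overlapping or antisense genes may be pooled, as the strand setting is not known.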

Additional observations from a re-analysis of the deposited data

How the results depend on the processing

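The log2 fold changes of Tdo2, Afmid, Kynu, Haao, Qprt, Aadat, Nampt and Nmnat3 kept their sign in all 15 alternatives. Kmo, near 0, changed sign in 4 and Acmsd in 1, at 0.26 without Quik-clot replicate 1. Over all genes, DESeq2 called 280 (186 higher, 94 lower), and leaving out a library gave 0 to 18 edgeR calls, the most without Quik-clot replicate 2, then 10 without AKOC replicate 1 and 2 without AKOC replicate 2. Of the further pathway genes DESeq2 called 2 and leaving out a library gave 0 calls. Groups did not overlap at 3 to 5 of the 10 genes. The mean Acmsd to Qprt ratio of AKOC was 1.22 in CPM, which ignores gene length. On that scale Acmsd lay above Qprt in AKOC replicates 1 and 2 and in Quik-clot replicates 1 and 3, unlike in FPKM. Leaving out a library in turn, log2 fold changes that turned sign ran from -0.196 to 0.003395 for Nmnat1 (positive without AKOC replicate 1), -0.02852 to 0.5472 for Aox3 (negative without AKOC replicate 3), -0.1414 to 0.7678 for Aox1 and -0.5643 to 0.7649 for Inmt, the last 2 negative without AKOC replicate 3 (-0.09104 for Aox1) or Quik-clot replicate 3 (-0.1618 for Inmt); the cause was not tested.

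The replicate block gave 1 edgeR call over all genes and 0 among the further genes. Same-numbered libraries did not deviate together (Pearson r of -0.07, -0.08 and -0.20 for numbers 1, 2 and 3, across genes, which are not independent replicates). These values show no pairing by number, but so few libraries cannot exclude it. With 3 libraries per dressing, changes of the size seen at Nampt and Acmsd lie within the spread between libraries.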
